A study of Mus musculus with 4 samples.

Results

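Expression of 8 genes of the Trem2, Tyrobp and Apoe signalling axis was examined in microglia isolated from mouse corpus callosum. The genes were taken by name as Trem2, Tyrobp, Apoe, Syk, Plcg2, Inpp5d, Vav1 and Bin1, and all 8 were found among the 21044 genes of the deposited expression table. All 8 were among the 18459 genes with read counts and the 13086 genes that passed the filter on low counts. RNA-seq was made on an Illumina instrument from total RNA of pups at postnatal day 7. The control group, called WT here, comprised 2 libraries from Lag3fl/fl mice, which carry a floxed Lag3 allele and have the genotype label wt. The other group, called cKO, comprised 2 libraries from Lag3cKO-Cx3 mice, with the genotype label ko. The name is read here as deletion of Lag3 by a Cx3cr1-driven Cre, which the labels do not spell out. That promoter is used by microglia and by other mononuclear phagocytes, and the labels do not say whether the WT mice carried a Cre or whether a library held 1 animal or several. Lag3 encodes an inhibitory immune receptor best known from T cells, and the design asks what its loss changes in microglia of developing white matter.

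TREM2 is a lipid-sensing receptor of the microglial surface that binds, among other ligands, lipoproteins carrying APOE. It has no signalling tail of its own and works through the adaptor TYROBP, also called DAP12, whose ITAM motif is phosphorylated and then recruits the kinase SYK. SYK acts on effectors that include the phospholipase PLCG2 and the exchange factor VAV1, while INPP5D, also called SHIP1, is a lipid phosphatase that dampens the pathway. BIN1 shapes membranes in endocytosis and is, like TREM2, APOE, INPP5D and PLCG2, encoded by a gene linked to the risk of Alzheimer disease in people.

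Total counts ranged from 14645187 to 16770162 per library. Lag3 was at 387 and 683 CPM (counts scaled to library size, here with TMM factors) in WT 1 and WT 2, and at 35.4 and 17.1 in cKO 1 and cKO 2. Cx3cr1, the gene of the presumed driver, was at 6443 and 6554 CPM in WT and at 3404 and 3034 in cKO. Lag3 and Cx3cr1 were thus lower in the same libraries, and differences that go with either cannot be told apart in this design. The library cKO 2 stood apart from the other 3. It had counts for 12787 genes against 14840 to 15899 elsewhere, and the correlation of its log2 CPM across genes with WT 1, WT 2 and cKO 1 was 0.783 to 0.802, against 0.872 to 0.910 for pairs of those 3. Xist, the X-inactivation transcript, had 4355 counts in cKO 2, 117 in cKO 1 and 0 in both WT libraries, and the Y-linked Ddx3y had 0 counts in cKO 2 against 1306 to 1795 elsewhere, so the 2 cKO libraries differed in the sex of their animals. The summed level of 12 microglia markers was 25839 to 29828 CPM in WT and 25847 to 26718 in cKO. All 12 had counts in every library, so the labelled cell type was present in each. The sum includes Cx3cr1 and hides differences between markers. Of the 12, 3 lay above both WT libraries in cKO (Tmem119, P2ry12 and Sparc) and 2 below (Sall1 and Cx3cr1). Over all genes tested, 15.8% lay above and 20.0% below. Tmem119 was at 381 and 541 CPM in WT and at 773 and 1172 in cKO.

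Upstream sequence is shown for 4 of the genes, namely the receptor and 3 signalling genes whose library patterns are set against each other below. Of the 8 genes, 6 had a window in the RefSeq promoter table (GRCm38.p6). Each sequence is the 250 bases before the annotated start, 5′ to 3′ on the strand of the gene, with motif matches in capitals. Motifs were searched on both strands as GAGGAA (the core bound by PU.1, a factor that specifies myeloid cells), CACGTG (an E-box) and TGANTCA (AP-1). None of these 3 letter patterns contains another.
Trem2: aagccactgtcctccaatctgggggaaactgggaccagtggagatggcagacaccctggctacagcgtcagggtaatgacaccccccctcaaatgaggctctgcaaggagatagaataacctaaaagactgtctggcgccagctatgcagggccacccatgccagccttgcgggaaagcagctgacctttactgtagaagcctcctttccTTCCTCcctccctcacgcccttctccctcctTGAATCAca
Inpp5d: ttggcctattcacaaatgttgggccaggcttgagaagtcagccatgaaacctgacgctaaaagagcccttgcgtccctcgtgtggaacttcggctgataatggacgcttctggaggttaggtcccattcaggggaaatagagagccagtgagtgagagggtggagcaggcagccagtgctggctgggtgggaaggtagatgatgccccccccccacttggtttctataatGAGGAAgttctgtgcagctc
Vav1: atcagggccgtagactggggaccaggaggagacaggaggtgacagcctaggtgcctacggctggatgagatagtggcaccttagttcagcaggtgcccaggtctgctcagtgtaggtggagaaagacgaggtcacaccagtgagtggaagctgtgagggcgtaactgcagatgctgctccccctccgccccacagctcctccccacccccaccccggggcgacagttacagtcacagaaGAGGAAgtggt
Plcg2: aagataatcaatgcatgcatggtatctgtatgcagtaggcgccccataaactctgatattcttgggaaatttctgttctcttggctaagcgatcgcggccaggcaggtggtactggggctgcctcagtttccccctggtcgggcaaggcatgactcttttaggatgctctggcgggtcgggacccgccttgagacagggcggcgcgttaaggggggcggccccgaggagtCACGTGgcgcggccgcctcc
These windows lie at chr17:48346151-48346400 for Trem2, chr1:87620062-87620311 for Inpp5d, chr17:57278850-57279099 for Vav1 and chr8:117498025-117498274 for Plcg2, all on the plus strand and outside annotated exons. The PU.1 core was present in 4 of the 6 windows and in 23.3% of all 32851 promoters of the table. Its first base, read on the strand of the gene, lay 40 bases before the start of Trem2, where it reads TTCCTC, 20 before that of Inpp5d and 11 before that of Vav1, and the fourth match was in Apoe at 250. The Trem2 window also held TGAATCA at 9 bases before the start, a pattern present in 6.75% of promoters. The Plcg2 window held CACGTG at 20 bases before the start, present in 6.02% of promoters, and no PU.1 core. The Syk window held none of the 3 patterns, but all its 250 bases lie in GENCODE M21 exons of Syk itself. A match of letters is a description and was not tied to binding in these cells.

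Levels were first compared between the genes per length, as the deposited FPKM (reads scaled by gene length and library size). Apoe had by far the highest level of the 8, at 9685 and 9365 FPKM in WT 1 and WT 2 and 7994 and 7809 FPKM in cKO 1 and cKO 2, and it ranked 2 among all genes in every library. As a share of all counts, Apoe stood at 2.07% in WT 1, 2.00% in WT 2, 1.71% in cKO 1 and 1.67% in cKO 2. The 8 genes together took 1.94% to 2.37% of a library, of which 83.8% to 87.5% came from Apoe.

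**Figure D1:**
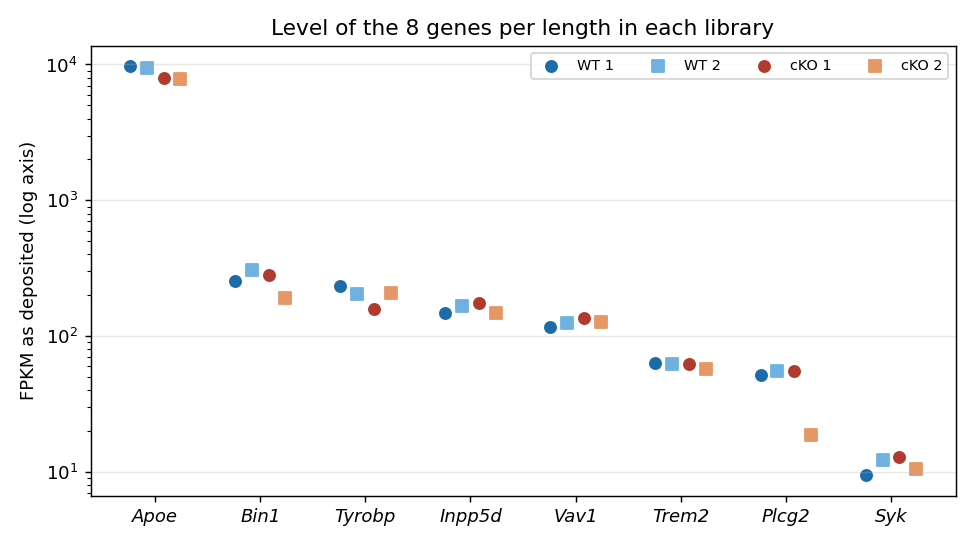
Deposited FPKM on a log axis for each of the 8 genes, ordered by mean level, with 1 point per library (circles for replicate 1, squares for replicate 2, blue for WT, red and orange for cKO). Apoe lies above 7000 FPKM in every library, Plcg2 is at 18.8 FPKM in cKO 2 and at 52.2 or more in the other libraries, and Syk is lowest, at 12.9 or less.

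After Apoe, the order of mean FPKM was Bin1, Tyrobp, Inpp5d, Vav1, Trem2, Plcg2 and Syk. Bin1 ranged from 190 to 305 FPKM over the 4 libraries, Tyrobp from 160 to 236 and Inpp5d from 147 to 177, so the ranges of Bin1 and Tyrobp overlapped, as did those of Tyrobp and Inpp5d. Vav1 at 118 to 136 FPKM, Trem2 at 57.4 to 63.0, Plcg2 at 18.8 to 55.8 and Syk at 9.49 to 12.9 each lay wholly below the gene before. Within the signalling module, the phosphatase Inpp5d was thus at 13.7 to 15.5 times the FPKM of the kinase Syk in every library.

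The place of Trem2 in this order rested on the gene length used. For 7 of the 8 genes, the length implied by the FPKM and the counts was that of all GENCODE M21 exons merged, within 1 base, which gives Trem2 4946 bases because of a retained-intron transcript of 4784 bases, whereas its longest coding transcript in GENCODE M21 has 1088. For Plcg2 both lengths were 4298 bases, for Tyrobp they were 667 and 597, and for Apoe 2138 and 1408. For Bin1 the implied length was 2451 bases against 4117 for its merged M21 exons, so its FPKM rests on another gene model. Per kilobase of the longest coding transcript, a choice added after the data were seen, the mean level of Trem2 was 280 TMM-scaled CPM, which placed it second. Bin1 then followed at 265, Inpp5d at 247, Tyrobp at 226, Vav1 at 158, Plcg2 at 45.9 and Syk at 19.8. The ranges of Trem2, Bin1, Inpp5d and Tyrobp over libraries overlapped on this scale, and so did those of Plcg2 and Syk. The counts divided were those of the whole gene. Reads outside the coding transcript can therefore raise these values, and with them the place of Trem2. The ratio of Tyrobp to Trem2, adaptor over receptor, was 2.56 to 3.74 by FPKM, and these RNA ratios depend on the same lengths.

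**Figure D2:**
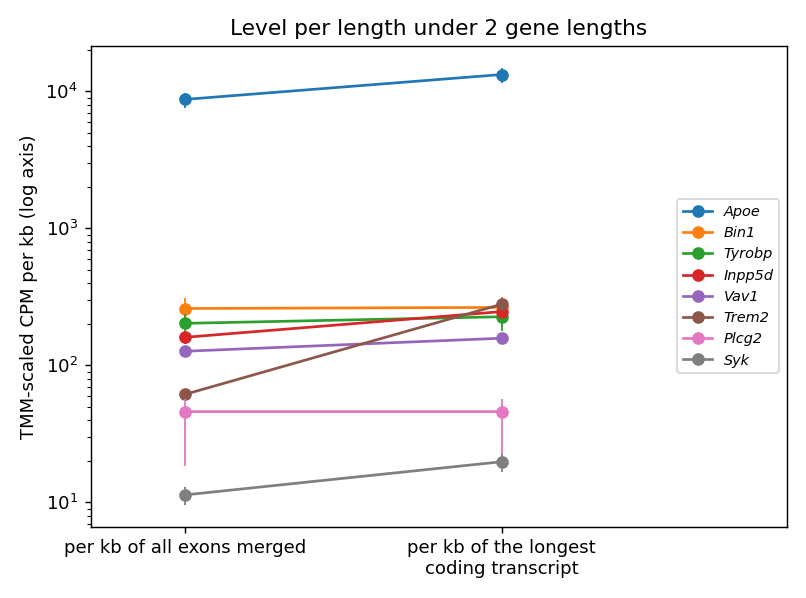
Level per kilobase (TMM-scaled CPM, log axis) of each gene with the length implied by the FPKM (all exons merged, except for Bin1) and with the longest coding transcript. Points are means over 4 libraries and vertical lines run from the lowest to the highest library. Trem2 moves from sixth to second place, at 280 per coding kilobase, while Apoe stays first and Plcg2 and Syk stay last.

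None of the 8 genes passed the threshold between cKO and WT. The edgeR quasi-likelihood test with Benjamini-Hochberg adjustment called 0 of the 8 and 0.0% of the 13086 genes tested. Its adjusted p was 0.9997 for each of the 8. Lag3 (log2 difference -4.35) and Cx3cr1 (-1.01) also had an edgeR adjusted p of 0.9997. DESeq2 called both, with a DESeq2 adjusted p of 1.46e-20 for Lag3 and 4.08e-05 for Cx3cr1. Since edgeR did not call even Lag3, the lack of an edgeR call cannot show that a gene was unchanged. At an unadjusted edgeR p under 0.05 there was 1 of the 8, Apoe, against 4.65% of all genes (608). DESeq2 called none of the 8 and 0.387% of its 13448 genes (52). Both cKO libraries lay below both WT libraries for 3 of the 8 genes, Trem2, Tyrobp and Apoe, and above for none, while 20.0% of all genes lay below and 15.8% above. With RLE factors, the size factors of DESeq2, the same 3 lay below, against 19.7% of all genes below and 16.2% above. With library totals alone, Trem2 and Apoe lay below and Vav1 above, against 18.2% and 17.6%. For a single gene, 2 libraries against 2 cannot give an exact permutation p below 0.333. In bulk libraries such as these, fewer cells of a type and less RNA per cell cannot be told apart.

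The ligand gene Apoe (ENSMUSG00000002985, chr7:19696109-19699188, minus strand, GRCm38) encodes the main lipoprotein component made in the brain, by astrocytes and microglia. Apoe was at 20940 and 20465 CPM in WT 1 and WT 2 and at 17070 and 16303 in cKO 1 and cKO 2. The groups did not overlap, and the gap between them was wider than the difference within either. The fitted log2 difference was -0.31 (SE 0.11, 95% interval -0.59 to -0.03, edgeR unadjusted p = 0.0363), and the mean of cKO differed from that of WT by -19.4%. Apoe stayed lower in cKO under every scaling and with each library left out, at -0.34 to -0.28, and passed the threshold, of the settings run, only without cKO 1 (edgeR adjusted p = 0.0334), a fit that called 5.72% of all genes. The ratio lay between 0.806 and 0.854 in the authors' deposited tables, which each compare 1 cKO library with 1 WT library, and 0 of the 4 tables called it, although all 4 listed an adjusted p under 0.05. In these tests of 1 library against 1, each of the 8 genes had such a p in 2 to 4 tables. The 12 astrocyte markers summed to 190 to 238 CPM in WT and to 261 and 547 in cKO 1 and cKO 2. Of the 11 tested, 7 lay above both WT libraries, against 15.8% of all genes, and Gjb6 and Slc4a4 were at 0 in cKO 2. Gfap, the most abundant of them in WT, was at 141 and 89.4 CPM in WT and at 82.3 and 201 in cKO. Their part in the level of Apoe was not tested.

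The receptor gene Trem2 (ENSMUSG00000023992, chr17:48346401-48354147, plus strand) was at 315 and 317 CPM in WT and at 308 and 277 in cKO. The WT libraries were almost equal, cKO 1 lay just under them and cKO 2 was lowest. The log2 difference was -0.11 (SE 0.16, 95% interval -0.53 to 0.30). It came to -0.04 without cKO 2 and to -0.19 without cKO 1.

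The adaptor gene Tyrobp (ENSMUSG00000030579, chr7:30413760-30417585, plus strand) was at 159 and 140 CPM in WT and at 106 and 135 in cKO. Here cKO 1, not cKO 2, was the lowest library, and cKO 2 was close to WT 2. The log2 difference was -0.31 (SE 0.22, 95% interval -0.88 to 0.27, edgeR unadjusted p = 0.222), and with scaling by library totals the groups overlapped. The ratio of Tyrobp to Trem2 by FPKM was accordingly 2.56 in cKO 1 against 3.74, 3.28 and 3.61 in WT 1, WT 2 and cKO 2.

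**Figure D3:**
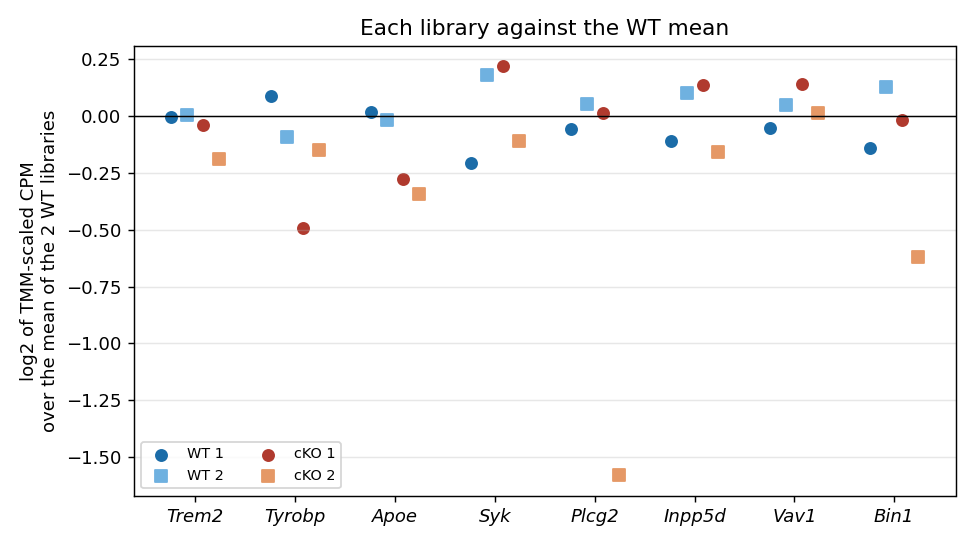
Log2 of TMM-scaled CPM of each library over the mean of the 2 WT libraries, for each gene, with blue for WT and red or orange for cKO. Both cKO points lie below both WT points for Trem2, Tyrobp and Apoe, and the lowest point is Plcg2 in cKO 2, at 79.0 CPM.

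The kinase gene Syk (ENSMUSG00000021457, chr13:52583173-52648792, plus strand) was at 89.9 and 118 CPM in WT and at 121 and 96.2 in cKO. Each group held a higher and a lower library and the groups overlapped. The log2 difference was 0.06 (SE 0.25, 95% interval -0.60 to 0.73), and it changed sign without WT 1 and without cKO 1, over a range of -0.13 to 0.26.

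Plcg2 (ENSMUSG00000034330, chr8:117498291-117635142, plus strand), the phospholipase that turns receptor signals into calcium release, had the widest spread of the 8. Plcg2 was at 227 and 245 CPM in WT and at 239 in cKO 1, but at 79.0 in cKO 2, where 1185 reads were counted. WT 1, WT 2 and cKO 1 were alike and cKO 2 was low, so the groups overlapped. The log2 difference was -0.57 (SE 0.54, 95% interval -1.98 to 0.84), and the 2 cKO libraries differed by -1.59 on the log2 scale. Without cKO 2 the difference was 0.015, and without cKO 1 it was -1.58 (edgeR adjusted p = 0.0331, 1 cKO library assumed to vary like the WT libraries). The authors' deposited tables called Plcg2 lower in the 2 that use cKO 2, with ratios of 0.360 and 0.337, and did not call it in the 2 that use cKO 1. Those tables called 46.8% and 48.8% of genes with cKO 2, and 34.8% to 36.1% with cKO 1.

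A level in cKO 2 at least 2-fold below each of the other 3 libraries was found for 22.4% of all genes tested, and for 3.17% (58) of the 1829 with 100 CPM or more on average, a range that includes Plcg2. The reverse, cKO 2 at least 2-fold above the others, held for 6.53% of all genes, and cKO 1 was 2-fold below the others for 6.32%, none of the 8 among them. The 58 genes had a median merged exon length of 6257 bases against 4258 for the 1829, and Plcg2 has 4298. Sex and the other features of cKO 2 cannot be told apart in the low Plcg2 value, and none of the other 7 genes was 2-fold low in cKO 2.

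Vav1 (ENSMUSG00000034116, chr17:57279100-57328031, plus strand), an exchange factor for small GTPases, was at 439 and 471 CPM in WT and at 502 and 459 in cKO. This was the narrowest range of the signalling genes downstream of the receptor, with a log2 difference of 0.08 (SE 0.15, 95% interval -0.32 to 0.47). The groups overlapped with TMM scaling, while with library totals both cKO libraries lay above both WT libraries. The ratio of Plcg2 to Vav1 by FPKM was 0.444, 0.447 and 0.408 in WT 1, WT 2 and cKO 1 and 0.148 in cKO 2.

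Inpp5d (ENSMUSG00000026288, chr1:87620312-87720507, plus strand), the phosphatase that opposes the pathway, was at 1132 and 1308 CPM in WT and at 1341 and 1093 in cKO. The high and low libraries were the same as for Syk, with WT 2 and cKO 1 above WT 1 and cKO 2. The log2 difference was -0.00 (SE 0.17, 95% interval -0.46 to 0.46), and its sign differed between settings.

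Bin1 (ENSMUSG00000024381, chr18:32377217-32435736 as deposited, plus strand) was at 636 and 765 CPM in WT and at 692 and 456 in cKO. As with Plcg2, cKO 1 lay within WT and cKO 2 was lowest. The log2 difference was -0.29 (SE 0.25, 95% interval -0.96 to 0.38), at -0.02 without cKO 2 and -0.62 without cKO 1. Exons of Bin1 overlap A830052D11Rik on the opposite strand over 256 bases, and since the strand of counting is not stated those reads cannot be told apart. The other 7 genes shared no exon sequence with another gene.

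**Figure D4:**
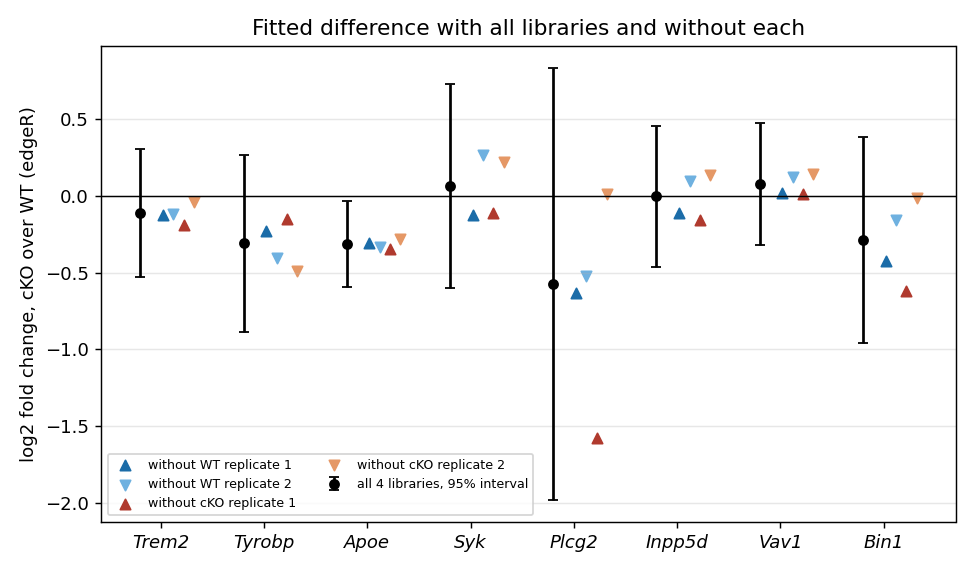
Fitted log2 difference between cKO and WT (edgeR) for each gene. Black points with bars show all 4 libraries with the 95% interval, and triangles show the fit without 1 library. Apoe has the interval that excludes 0, from -0.59 to -0.03, and Plcg2 moves from -1.58 without cKO 1 to 0.015 without cKO 2.

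The genes also differed in how alike their patterns were over the 4 libraries. Likeness was measured as the root mean square difference of log2 CPM after centring each gene on its own mean, where 0 means the same pattern. It was not scaled for how much a gene varies. Genes that vary little thus come out near each other whatever their order of libraries. Inpp5d was nearest to Syk (0.075) and to Vav1 (0.082), and Syk and Vav1 were 0.124 apart. The receptor Trem2 and its adaptor Tyrobp were 0.213 apart, farther than Trem2 and Apoe at 0.104. Trem2 was as near to Vav1 (0.102) and to Inpp5d (0.103) as to Apoe. The order of libraries still differed, with Trem2 highest in WT 2 and lowest in cKO 2, and Vav1 highest in cKO 1 and lowest in WT 1. All 7 pairs with Plcg2 were at 0.425 to 0.730, beyond the 0.075 to 0.370 of the other 21 pairs. These distances include the size of its drop in cKO 2. Its nearest was Bin1 (0.425), which had the same order of libraries, from WT 2 over cKO 1 and WT 1 down to cKO 2. The 4 libraries share their depth and scaling across all pairs.

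Among 9427 other genes averaging 5 CPM or more, the nearest to Trem2 were Pea15a (0.007), the cyclophilin gene Ppia (0.011) and Mzt2 (0.013), and 69 genes lay within 0.05. The nearest to Tyrobp were the cytochrome oxidase subunit gene Cox5a (0.032), the mannose 6-phosphate receptor gene M6pr (0.037) and Eepd1 (0.039), with 9 genes within 0.05. The nearest to Apoe were the splicing factor gene Prpf8 (0.015), Mea1 (0.026) and the tubulin gene Tubb2a (0.026), with 35 genes within 0.05. None of these 9 is another of the 8 genes. Named after its values were seen, Csf1r, the receptor that microglia need for survival, was the nearest gene to Inpp5d at 0.017, at 7803 and 9026 CPM in WT and 8997 and 7428 in cKO.

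The wider pathway was described with 8 gene lists. Neither edgeR nor DESeq2 called a gene in any of them, and 0 to 3 genes per list had an unadjusted edgeR p under 0.05, so each is given by the number of genes whose cKO libraries lay above or below both WT libraries and by its median log2 difference, beside 15.8% above, 20.0% below and a median of -0.03 over all genes tested. The 8 genes themselves had a median of -0.20.

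In the TREM family and other receptors that pair with TYROBP or HCST, 4 of 13 genes lay above and 1 below, with a median of 0.15. Treml4, a TREM-like receptor gene, was at 2.23 and 4.37 CPM in WT and at 13.1 and 37.9 in cKO, above both WT libraries in each (log2 difference 2.95, SE 0.80, edgeR unadjusted p = 0.0159, DESeq2 adjusted p = 0.0809). Cd300ld was at 3.44 and 5.46 in WT and at 14.5 and 11.7 in cKO. Treml2 overlapped between groups, at 54.5 and 27.6 against 49.1 and 115.5 CPM. The 12 neutrophil and monocyte markers summed to 19.7 to 59.4 CPM in WT. Their sum was 42.3 CPM in cKO 1 and 194 in cKO 2. Ngp, Ltf and Camp had 626, 632 and 106 counts in cKO 2, and at most 37, 18 and 2 elsewhere. S100a8, Cxcr2, Ccr2 and Plac8 were also highest in cKO 2, at 13.8, 16.8, 13.1 and 53.9 CPM. Of the 8 markers tested, 3 lay above both WT libraries in cKO and 0 below, against 15.8% and 20.0% of all genes. S100a9, Ly6c2, Elane and Mpo were highest in WT 1, and Retnlg was highest in cKO 1. Elane and Mpo were at 0 in WT 2, cKO 1 and cKO 2. The part of neutrophils and monocytes in the values of these receptor genes was not tested.

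For shedding and surface control of TREM2, 2 of 14 genes lay above and 2 below, with a median of 0.10. Aph1a, a subunit of a membrane protease complex, was at 47.8 and 57.1 CPM in WT and at 35.3 and 40.4 in cKO, and its exons overlap Car14 on the opposite strand. Ms4a6b, of the family of membrane proteins linked to soluble TREM2, was at 88.3 and 73.3 against 95.9 and 157, so that cKO 2 was highest.

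Among kinases and adaptors near the ITAM, 7 of 39 genes lay above and 9 below, with a median of -0.02. Lcp2, the SLP-76 adaptor that VAV proteins bind, was at 319 and 308 CPM in WT and at 417 and 476 in cKO (log2 difference 0.51, SE 0.16, edgeR unadjusted p = 0.0264), and its exons overlap 4930469K13Rik on the opposite strand. Pik3ap1, which links receptors to phosphoinositide 3-kinase, was also higher in both cKO libraries, at 340 and 333 against 267 and 245. Vav2, a paralogue of Vav1, was at 67.3 and 69.9 in WT and at 43.7 and 33.5 in cKO (log2 difference -0.83, SE 0.28, edgeR unadjusted p = 0.0353). Vav1 had no such gap, though the difference between both genes was not tested.

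Of the inhibitory phosphatases and adaptors, 6 of 19 genes lay above and 2 below, with a median of 0.17. Lilrb4a, also listed, is not among the 19. The deposited data hold more than 1 entry of that name. The entry used had 2 to 4 counts per library and did not pass the filter, and the other was not examined. Ptprc, which encodes CD45, was at 280 and 272 CPM in WT and at 291 and 406 in cKO, and Csk, the kinase that restrains SRC family kinases, was at 24.6 and 37.5 against 46.0 and 53.9. Dok1 was lower in cKO, at 74.7 and 83.5 against 58.2 and 37.9 CPM. In each of these 3 genes, cKO 2 lay farther from WT than cKO 1.

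In APOE and lipoprotein handling, 1 of 23 genes lay above and 4 below, with a median of -0.11. Soat1, which esterifies cholesterol, was at 520 and 486 CPM in WT and at 429 and 367 in cKO, and Npc1, which exports cholesterol from lysosomes, was at 77.6 and 84.4 against 62.0 and 32.9. Npc1 shares exon sequence with Rmc1 and Gm15956 on the opposite strand. Clu, a second apolipoprotein gene that astrocytes express strongly, was at 13.6 and 13.9 in WT and at 22.7 and 40.7 in cKO. The order of Clu over the cKO libraries was that of the astrocyte markers given above, whose part in it was not tested.

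Among the endocytosis partners of BIN1, 3 of 24 genes lay above and 6 below, with a median of -0.13. Bin2, a close relative of Bin1, was at 367 and 474 CPM in WT and at 551 and 718 in cKO (log2 difference 0.59, SE 0.22, edgeR unadjusted p = 0.0483), while Bin1 was at its lowest in cKO 2. The early endosome gene Rab5c was at 125 and 118 against 90.3 and 90.7, and Ap2s1, a clathrin adaptor subunit, was at 228 and 227 against 200 and 141. Rab5c was nearly equal in both cKO libraries, whereas Ap2s1 was lowest in cKO 2.

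The disease-associated state of microglia is described as an early set of genes that arises without TREM2 and a late set that needs it. Of the early set, 1 of 6 genes lay above and 2 below, with a median of -0.07. B2m, the light chain of MHC class I, was at 2625 and 1912 CPM in WT and at 3474 and 3124 in cKO. Ctsd, a lysosomal protease gene, was at 1738 and 1421 in WT and at 1110 and 1028 in cKO. Ctsb, another, was at 27466 and 28023 against 24889 and 25236 (log2 difference -0.15, SE 0.10). Ctsd shares exon sequence with Gm49369 on the same strand and Ctsb with Fdft1 on the opposite strand.

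Of the late set, which has TREM2 dependence in its definition, 3 of 15 genes lay above and 7 below, with a median of -0.30. Lilrb4a is listed in this set too but is not among the 15, for the reason given with the inhibitory genes. Without cKO 2 the median was -0.15, beside -0.02 over all genes, and without cKO 1 it was -0.49, beside -0.15 over all genes. Spp1, which encodes osteopontin, was at 41716 and 34930 CPM in WT and at 25492 and 23017 in cKO (log2 difference -0.66, SE 0.14, edgeR unadjusted p = 0.0062, DESeq2 adjusted p = 0.104). It shares exon sequence with Gm42793 on the same strand. Itgax, which encodes CD11c, was at 346 and 300 in WT and at 204 and 108 in cKO. Axl, a receptor used in the uptake of dying cells, went the other way at 79.2 and 56.2 against 133 and 139, so the late genes did not share a direction.

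**Figure D5:**
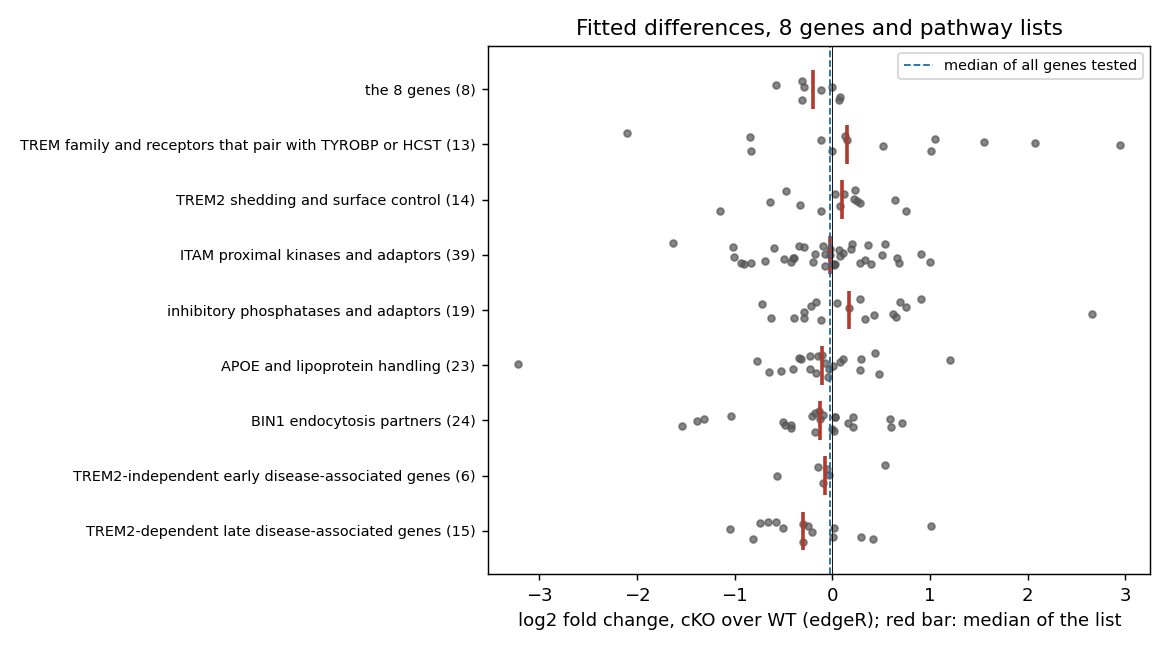
Fitted log2 difference between cKO and WT (edgeR) of each tested gene, in rows for the 8 genes and the 8 pathway lists, with the number tested in parentheses. Points are genes with random vertical spread, red bars are list medians and the dashed line is the median of all genes tested, -0.03. The late disease-associated set has the lowest median of the rows, -0.30, and its genes lie on both sides of 0.

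Markers of other cell types had lower sums than the microglia markers. Myelinating oligodendrocyte markers summed to 117 to 118 CPM in WT and 149 to 199 in cKO, precursor markers to 35.9 to 47.6 against 27.1 to 73.8, and neuron markers to 9.89 to 23.2 against 22.8 to 63.5. Lymphocyte markers, of which 4 of 10 had counts, summed to 92.1 to 98.2 CPM in WT and 106 to 118 in cKO, nearly all from Cd79b at 90.8 to 111. Cd79a was at 6.40 CPM in cKO 2 and at 0.446 or less elsewhere, while Cd3e and Lck were below 1 CPM in every library. Border macrophage markers summed to 1754 to 1903 against 1250 to 1708. The low sum in cKO 2 came from Stab1, at 720 CPM there against 1212 to 1372 elsewhere, and Cd163 and Cd209f were at 0, while Mrc1 was at 463 in cKO 2 against 406 to 472 elsewhere. Endothelial and mural markers summed to 19.0 to 23.2 CPM in WT and 22.5 to 30.5 in cKO, with 5 of 7 at 0 in cKO 2. Border macrophages also use several of the 8 genes, and the part of these cells in their values was not tested.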

How the data were processed

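RNA-seq was measured in 4 libraries, 2 WT and 2 cKO. Per the submitters' processing notes, TopHat2 2.0.12, Bowtie2 2.2.3, HTSeq 0.6.0 and the build mm9 were used, without settings, strand or annotation. Gene positions matched GRCm38 instead, at 92.1% of the 21008 genes shared with GENCODE M21. The authors deposited FPKM values and 4 tables of 1 cKO library against 1 WT library. Per the file headers these tables hold read counts per gene, and the authors' normalized signal, fold change as a ratio, log2 fold change, p-value and adjusted p-value. Their test is not stated in the sources used here.

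The 4 tables gave joined counts for 18459 genes. Counts absent from the tables were rebuilt from the FPKM by 1 factor per gene and 1 per library, which filled 4315 of 73836 cells, 100.0% of them whole within 1e-06 and the highest being 4. There were 0 reads in rows that name no gene and 0 per-sample columns left unmapped. The main test was the quasi-likelihood test of edgeR 4.0.16 (R 4.3.3), on counts scaled by TMM and filtered by filterByExpr. It was fitted without a block on all genes, at a Benjamini-Hochberg adjusted p under 0.05. It was also run on simulated data, with less spread between libraries than the common biological coefficient of variation of 0.743 found here. Those simulations therefore do not show how the test performs at the spread of these libraries. Alternatives used DESeq2 1.42.0, limma 3.58.1, other scaling, filters and pseudocounts, and fewer libraries. Nothing in the labels says that libraries came from separate animals, so p-values measure the spread between these libraries, which may be technical in WT. The cKO libraries differed in sex transcripts, so their spread is not technical alone. Libraries of a group differed beyond sampling noise, with a chi-square per degree of freedom of 27.8 in WT and 107.5 in cKO, and each was used as its own sample.

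The genes named are the 8, Lag3 and Cx3cr1, the 3 genes per list with the smallest unadjusted p at a mean of at least 5 CPM, and the 3 most similar genes for Trem2, Tyrobp and Apoe. One gene under this rule is not reported here. Genes, lists and rules were chosen with earlier results of these data known. Lists were described without a test.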

Additional observations from a re-analysis of the deposited data

How the results depend on the processing

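Over 13 other settings for each of the 8 genes, 104 in all, 90 kept the direction and the side of the threshold, 2 passed it and 12 changed sign. Those that passed it, Apoe and Plcg2, did so without cKO replicate 1, which leaves 1 cKO library assumed to vary like the WT libraries. With each library left out in turn, the log2 difference ranged from -0.34 to -0.28 for Apoe, -1.58 to 0.015 for Plcg2, -0.13 to 0.26 for Syk and -0.16 to 0.14 for Inpp5d, and the number of genes called by edgeR ranged from 0 to 748. Inpp5d, at -0.00 in the main setting, was 0.0057 with DESeq2, 0.0064 with RLE factors, 0.039 with library totals, 0.0080 at a mean of at least 5 CPM, and 0.0347, 0.0349 and 0.0348 with limma on log2 of FPKM plus 1, 0.1 and 0.5. DESeq2 called 52 genes in all, none of them among the 8, and the cause of this difference from edgeR was not tested. With the replicate number as a replicate block, 0 genes were called and Plcg2 was at -0.78, and the numbers share nothing in the labels, with a correlation of same-numbered deviations of -0.02. Per kilobase of the longest coding transcript, Trem2 was 2, Bin1 3, Tyrobp 5 and Vav1 6 in the order of levels. With 2 libraries a group, the 95% intervals given above bound what these data could show. Counting error was small beside this, at most 2.9% of a count for any of the 8.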
